A study of Hydra vulgaris with 36 samples.

Results

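The 200 genes described here were those whose transcript levels differed most between replicate samples of whole Hydra kept under the same treatment and collected at the same time. They were taken from 6497 candidate genes, out of 12410 in the deposited table, that had a mean level of at least 5 and below 500 CPM (counts scaled by the library total) over 36 libraries and a mean difference between DAPT and DMSO animals at 0 h above -0.7 and below 0.7 on the log2 scale. For each candidate, log2(CPM + 0.5) was taken less the median of its library, and the standard deviation (SD) of these values was pooled over the 6 groups of the study. The 200 genes with the largest pooled SD became the members. Their spread within groups and their closeness to 0 at 0 h were therefore fixed by the choice and are given as descriptions, without tests.

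Hydra vulgaris is a freshwater polyp built of an epithelial outer and inner layer, with interstitial stem cells that give rise to nerve cells, gland cells and the stinging cells called nematocytes. DAPT inhibits gamma-secretase, the protease complex that releases the intracellular part of the Notch receptor so that it can act on transcription. In Hydra, Notch signalling is known to be needed for the differentiation of nematocytes and for the boundary between a bud and its parent. The study set out to find Notch target genes by comparing inhibited with control animals.

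Polyps of the Basel strain, starved for 24 h beforehand, spent 48 h either in 20 µM DAPT with 1% DMSO, the solvent, or in 1% DMSO alone, each renewed every 12 h. They were collected at the end of the incubation (0 h), or 3 h or 6 h after a change of the DAPT solution to 1% DMSO, so that all groups carried the solvent throughout. Each of the 6 groups, DMSO and DAPT at 0 h, 3 h and 6 h, held 6 libraries that the labels call biological replicates, each from about 25 pooled animals. Age, sex and budding state of the polyps were not given in the sources used here, and inhibition of gamma-secretase is not specific to Notch. A library averages over its pooled animals and over all cell types, so fewer cells of a type and less RNA per cell cannot be told apart. The columns of the table carry the letters S and P, read here as DMSO and DAPT. Under the opposite reading every direction between the treatments would be mirrored, and the time courses of DMSO and DAPT animals would trade places.

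The genes carry identifiers of a de novo transcript assembly and no names, and these identifiers do not occur among the RefSeq genes of Hydra. Sequences were not compared, so whether a member has a RefSeq counterpart is unknown. No function is therefore given for any member. Total counts per library ran from 5692414 to 15310480. The factors of the trimmed mean of M values (TMM), which correct library size for differences in composition, ran from 0.626 in DMSO 6 h replicate 4 to 1.37 in DAPT 0 h replicate 5. In every library all deposited values below 200 were whole multiples of 1 step within a tolerance of 0.0051, the form that a value rounded after scaling for library size and then multiplied by a library total would have. Within the rounding of 1 step, 6.45% to 16.9% of these values in a library were whole numbers, against 6.76% to 16.5% by chance, so whole reads could not be recovered. Whether the values had also been divided by gene length, as in TPM, is not shown by the steps. The number of reads behind a value is therefore unknown, no counting interval is given for any value, and the order of genes by level depends on this. Levels are given as TMM-scaled CPM.

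The pooled SD of the members ran from 0.864 to 1.59 on the log2 scale, with a median of 1.05, while the other 6297 candidates had a median of 0.34. Within a group, the library with the highest level of a member stood at a median of 7.07 times the lowest, against 1.78 times for the other candidates. Over all 36 libraries this ratio was 10.7 to 398 for members, with a median of 37.3. These ratios divide by the lowest library with nothing added, and that library was often near the floor. The lowest deposited value of a member had a median of 7.2, against 42.55 for the other candidates. The last gene admitted, TRINITY_DN981_c0_g1, had a pooled SD of 0.864, and the first left outside, TRINITY_DN92_c1_g1, one of 0.861, so the limit fell in a continuous range. Members were spread over the whole span of abundance allowed by the rule, with mean levels of 5.13 to 492 CPM and a median of 12.8. A mean below 10 CPM was found for 74 members and one of at least 100 CPM for 14. Together they took between 0.272% of a library, in DAPT 6 h replicate 6, and 1.61%, in DAPT 0 h replicate 5.

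**Figure D1:**
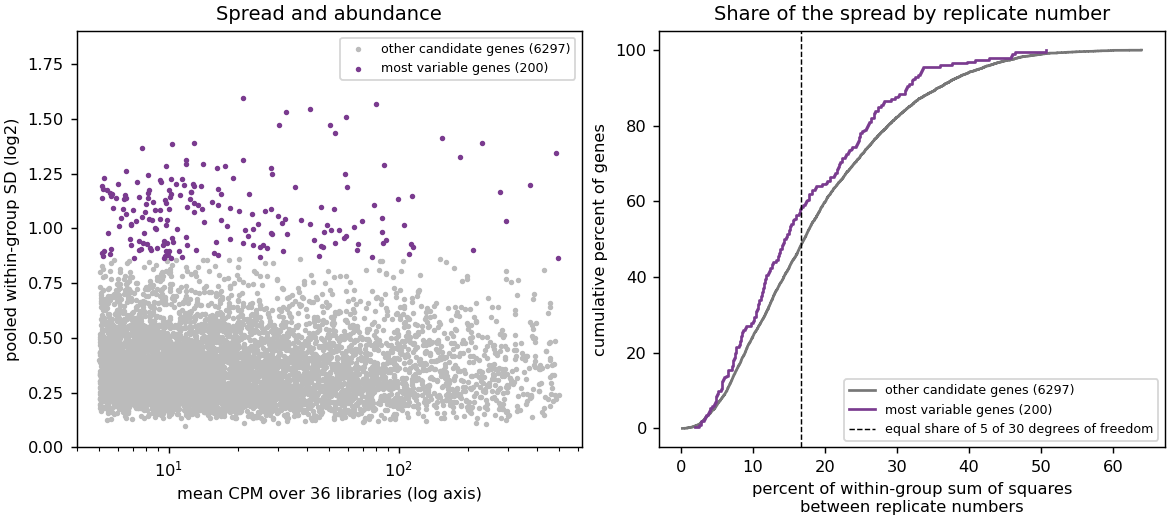
Left, pooled within-group SD on the log2 scale against mean CPM over 36 libraries (log axis) for the 200 most variable genes and the 6297 other candidates, 1 point per gene. Right, cumulative percent of genes against the share of the within-group sum of squares that lay between replicate numbers. The members begin at an SD of 0.864 at every abundance, and their curve on the right lies mostly to the left of that of the other candidates, with a median share of 14.5% against 17.1%.

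The spread was not equally large in all groups. In DMSO animals members had a median SD of 0.84 at 0 h, which was 0.60 at 3 h and 1.21 at 6 h. In DAPT animals it was 1.03, 1.07 and 1.23 at the same times. The other candidates had their lowest median in DMSO at 3 h as well, at 0.23, and their highest, both 0.38, in DMSO at 6 h and DAPT at 3 h. Single libraries weighed unequally. DMSO 6 h replicate 4 held 10.3% of the members' within-group sum of squares, the largest share of any library, and was the library farthest from its group mean for 70 of the 200 genes. DAPT 6 h replicate 6 held 6.28% and DAPT 3 h replicate 2 held 6.17%. When DMSO 6 h replicate 4 was left out, 183 of the 200 genes were chosen again. Without DAPT 6 h replicate 6 the number was 189, and without DAPT 3 h replicate 2 it was 182.

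The labels number the replicates of each group and do not say whether a number marks a batch of polyps shared by the groups. In members, a median of 14.5% of the within-group sum of squares lay between replicate numbers, where 5 of 30 degrees of freedom give an equal share of 16.7%, and the median over all tested genes was 16.4%. By edgeR's quasi-likelihood F test of the replicate number beside the 6 group means, 0 members were called at an adjusted p under 0.05, and 0.0% of all 12253 tested genes were. At an unadjusted p under 0.05 there were 31 members, which is 15.5% of them, against 9.67% of all tested genes. DESeq2 called 7 members and 280 of all tested genes, and limma-voom and limma on log2 values called 0 of either. Whether replicate numbers mark batches was not tested beyond this, and the spread described here is that between replicate libraries within a group.

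The 3 members with the smallest p for the replicate number were TRINITY_DN5320_c0_g1, TRINITY_DN5499_c0_g1 and TRINITY_DN3745_c0_g1, with 45.9%, 42.7% and 45.9% of their within-group sum of squares between numbers (smallest edgeR adjusted p = 0.197). TRINITY_DN3745_c0_g1, at a mean of 294 CPM, was among the more abundant members. Its values, as lowest, median and highest, were 143, 274 and 914 CPM in DMSO at 0 h, 99.98, 248 and 679 at 3 h, and 53.3, 222 and 656 at 6 h. In DAPT they were 115, 188 and 304 CPM at 0 h, 88.5, 202 and 509 at 3 h, and 87.5, 306 and 939 at 6 h. Replicate 2 was highest in all 3 DAPT groups and in DMSO at 3 h, while replicate 3 was highest in DMSO at 0 h and replicate 1 in DMSO at 6 h.

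The members did not vary each on its own. When they were clustered by the correlation of their deviations from the group means over 36 libraries, 181 of the 200 fell into 4 modules of at least 8 genes, and 19 fell into none. The first 2 principal components of these deviations held 77.7% of the members' variation, against 60.8% for the other candidates and 53.5% for all tested genes. Modules were formed from these deviations, so the agreement within a module is a description with no test. The modules are called A to D in order of size.

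**Figure D2:**
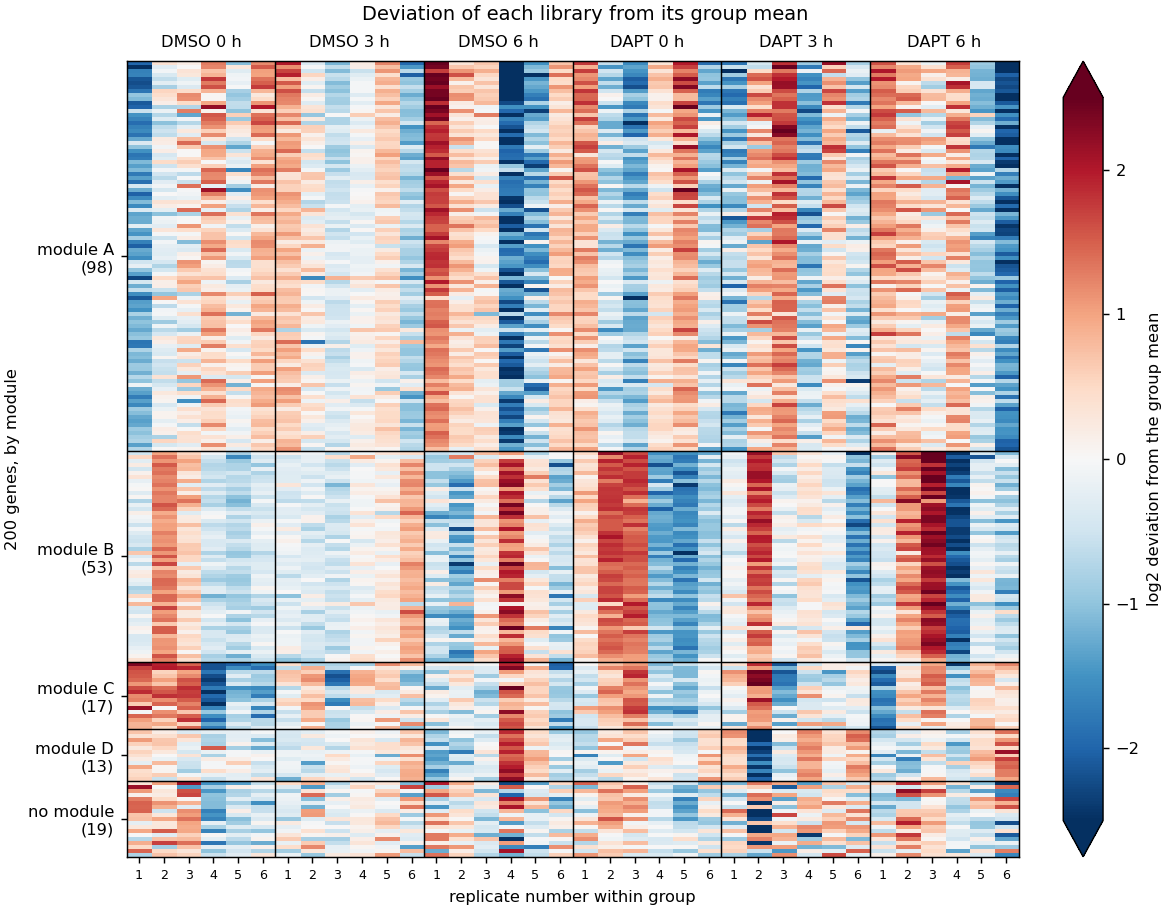
Deviation of each of the 200 genes (rows, by module) from its group mean in each of 36 libraries (columns, 6 per group by replicate number), on a log2 colour scale that is clipped at its ends. Whole modules shift together within single libraries, such as modules A and B in opposite directions in DMSO 6 h replicate 4.

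Module A was the largest, with 98 genes, a median mean level of 22.3 CPM and a median correlation of 0.80 between pairs of its genes. The mean of the module accounted for 80.3% of its genes' within-group sum of squares. The geometric mean level of its genes per library, as lowest, median and highest, was 11.1, 27.9 and 50.2 CPM in DMSO at 0 h, 7.74, 13.6 and 23.9 at 3 h, and 3.00, 18.5 and 45.5 at 6 h. In DAPT animals it was 11.2, 24.9 and 55.9 CPM at 0 h, 7.42, 15.8 and 39.3 at 3 h, and 3.70, 17.7 and 27.8 at 6 h. All 6 groups overlapped. In DMSO at 6 h the lowest library was replicate 4 and the highest replicate 1: in replicate 1 100.0% of the module's genes lay above their group mean, and in replicate 4 0.0%.

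The 8 members with the largest SD all belonged to module A, and the extremes of the set lay with them. TRINITY_DN1724_c0_g2, first by SD at 1.59, had 0.499 CPM in replicate 4 of DMSO at 6 h, with a group median of 11.6 and a highest value of 52.4 in replicate 1. In DMSO at 0 h its lowest, median and highest values were 6.02, 32.0 and 64.4 CPM, and in DAPT at 0 h they were 4.21, 16.3 and 72.2. The control group alone thus covered, at 6 h, most of the range seen for this gene over all 36 libraries. TRINITY_DN5549_c0_g1 had the widest range of all members, from 0.396 CPM in DAPT 6 h replicate 6 to 158 CPM in DAPT 0 h replicate 1, a ratio of 398. Its lowest deposited value was 2.66, so the size of this ratio rests on a value near the floor. TRINITY_DN6110_c0_g1, at a mean of 79.5 CPM, had a lowest value of 2.48 CPM in DMSO 6 h replicate 4 and a highest of 253 CPM in DMSO 0 h replicate 6. In 6 of these 8 genes the lowest of 36 values was that of DMSO 6 h replicate 4, and the other two, TRINITY_DN5549_c0_g1 and TRINITY_DN2444_c0_g1, had it in DAPT 6 h replicate 6 and DMSO 6 h replicate 5. The remaining 5, TRINITY_DN2444_c0_g1, TRINITY_DN954_c0_g1, TRINITY_DN6198_c0_g1, TRINITY_DN172_c0_g1 and TRINITY_DN6696_c0_g1, had SDs of 1.44 to 1.53 and highest-to-lowest ratios of 60.1 to 171.

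Module A also held the genes at the top of the abundance range. The most abundant members, TRINITY_DN378_c1_g1 and TRINITY_DN3506_c0_g1, at means of 492 and 485 CPM, both belonged to it. TRINITY_DN3506_c0_g1 stood at 272, 714 and 2048 CPM as lowest, median and highest in DAPT at 0 h, and at 23.9, 263 and 558 CPM in DAPT at 6 h. In DMSO its values were 241, 490 and 1198 CPM at 0 h and 27.2, 196 and 783 CPM at 6 h. TRINITY_DN378_c1_g1 held a narrower range, from 59.5 CPM in DMSO 6 h replicate 4 to 926 CPM in DMSO 0 h replicate 2. The genes closest to the mean of the module were TRINITY_DN525_c0_g1, with 42.3 CPM in DAPT 6 h replicate 6 and 1095 CPM in DMSO 6 h replicate 1 as its extremes, and TRINITY_DN14401_c0_g1, with 3.08 CPM in DAPT 6 h replicate 6 and 51.7 CPM in DMSO 0 h replicate 6. With mean levels between 22.2 and 492 CPM, these 4 genes had their lowest values in DMSO 6 h replicate 4 or DAPT 6 h replicate 6.

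The pattern of module A reached well beyond the 200 genes. In the whole table, 1019 genes had deviations correlated with the module mean at 0.8 or above, of which 86 were members and 525 were other candidates with a smaller spread, and 369 lay below 5 CPM. A further 661 genes were correlated at -0.8 or below, with deviations opposite to those of the module. Such reach was not particular to module A. With the means of modules C and D, 164 and 352 genes were correlated at 0.8 or above, and 12 and 390 at -0.8 or below. The means of modules A and D were themselves correlated at -0.80. Genes counted for D may thus be among those counted for A with the opposite sign, and the overlap was not counted. Genes whose identifiers share the leading assembly number are called a cluster here, and their sequences were not compared. Of 5 such assembly clusters with at least 2 members, 4 lay within module A. The cluster TRINITY_DN182 had all 5 of its genes in the set, correlated at 0.82 to 0.97 with each other. Where genes of a cluster share sequence, reads could have been divided between them, which was not tested. Another gene of the same cluster was in the table for 42 members.

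Module B held 53 genes of lower abundance, with a median mean level of 8.58 CPM, and was the most tightly joined, with a median pair correlation of 0.90 and 88.0% of the sum of squares in its mean. Its geometric mean level, as lowest, median and highest, was 4.72, 6.58 and 18.6 CPM in DMSO at 0 h, 8.99, 11.6 and 22.7 at 3 h, and 2.13, 4.16 and 13.4 at 6 h. In DAPT it was 2.63, 6.72 and 20.4 CPM at 0 h, 3.77, 8.70 and 27.3 at 3 h, and 1.47, 5.08 and 26.2 at 6 h. The high libraries were few. They were replicate 2 in DMSO at 0 h, replicate 4 in DMSO at 6 h, replicates 2 and 3 in DAPT at 0 h, replicate 2 in DAPT at 3 h, and replicates 3 and 2 in DAPT at 6 h. In each of these 7 libraries 100.0% of the module's genes lay above their group mean, and in DMSO 3 h replicate 6, the highest of its group, 96.2% did. This was also the module that followed the replicate number most, with a median share of 24.4%. By edgeR, 24 of 53 genes had an unadjusted p under 0.05, against 9.67% of all tested genes, and 0 passed the adjusted threshold. These genes were grouped by the same deviations and share their libraries, so 24 of 53 is a description and not a number of replicates.

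TRINITY_DN3360_c0_g1, the most abundant gene of module B and one of the closest to its mean, shows the pattern in single values. In DAPT at 6 h it stood at 199 CPM in replicate 3 and 104 in replicate 2, while the other 4 libraries lay between 6.29 and 32.1 CPM. In DMSO at 6 h replicate 4 stood at 91.8 CPM and the other 5 between 9.81 and 36.1 CPM. TRINITY_DN2753_c0_g1, the other gene closest to the mean, ranged from 1.36 CPM in DAPT 6 h replicate 4 to 31.5 CPM in DAPT 6 h replicate 3, so that its whole range lay within 1 group. Unlike module A, module B had few followers outside the set. In the table, 106 genes were correlated with its mean at 0.8 or above, of which 51 were members, 53 lay below the limit of 5 CPM and 2 were other candidates, and 1 gene was correlated at -0.8 or below.

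Modules C and D were small. Module C had 17 genes, a median mean level of 11.6 CPM and a median pair correlation of 0.74. Its geometric mean level was 2.79, 13.6 and 26.5 CPM in DMSO at 0 h, 9.27, 20.9 and 30.0 at 3 h, and 6.87, 11.9 and 32.6 at 6 h, again as lowest, median and highest. In DAPT it was 4.96, 7.18 and 21.3 CPM at 0 h, 10.5, 22.3 and 62.9 at 3 h, and 5.89, 22.1 and 34.3 at 6 h. In DMSO at 0 h the 6 libraries fell apart, with replicates 1 to 3 at 21.6 to 26.5 CPM and replicates 4 to 6 at 2.79 to 5.62 CPM. In DAPT at 0 h they were at 7.27 to 21.3 and 4.96 to 7.08 CPM. Module B split the same way at 0 h. In DMSO it stood at 6.82 to 18.6 and 4.72 to 6.33 CPM, in DAPT at 9.48 to 20.4 and 2.63 to 3.95. In DAPT at 6 h it did so again, at 5.36 to 26.2 and 1.47 to 4.81 CPM. The order was reversed in DMSO at 3 h, at 8.99 to 10.4 and 12.7 to 22.7 CPM. Elsewhere in modules B and C the numbers were mixed, and the split was not tested. TRINITY_DN2809_c0_g1 showed the split in DMSO at 0 h, with 22.4 to 28.7 CPM in replicates 1 to 3 and 1.98 to 5.53 CPM in replicates 4 to 6. It reached its highest value, 187 CPM, in DAPT 3 h replicate 2. TRINITY_DN2747_c0_g1, likewise close to the mean of the module, ran from 0.830 CPM in DMSO 0 h replicate 6 to 14.0 CPM in DAPT 3 h replicate 2. TRINITY_DN13207_c0_g1, the most abundant gene of module C at a mean of 211 CPM, ran from 54.6 CPM in DMSO 0 h replicate 4 to 825 CPM in DMSO 6 h replicate 4. The other member from the assembly cluster of TRINITY_DN2809_c0_g1, TRINITY_DN2809_c0_g2, was in module B, and the deviations of both correlated at 0.48.

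Module D had 13 genes, a median mean level of 16.0 CPM and a median pair correlation of 0.74. Its geometric mean level in DMSO was 12.9, 14.9 and 22.0 CPM at 0 h, 15.4, 19.5 and 32.7 at 3 h, and 9.39, 15.3 and 66.4 at 6 h. In DAPT it was 11.0, 16.6 and 24.1 CPM at 0 h, 2.35, 22.2 and 33.8 at 3 h, and 11.4, 15.7 and 39.1 at 6 h. Its most distant libraries were a pair, high in DMSO 6 h replicate 4 and low in DAPT 3 h replicate 2. TRINITY_DN1195_c1_g1 stood at 119 CPM in the former, where the other 5 libraries lay between 15.2 and 44.2, and at 0.418 CPM in the latter, where the other 5 lay between 18.8 and 43.0. TRINITY_DN12740_c0_g1 stood at 83.0 and 2.66 CPM in the same libraries, and TRINITY_DN7080_c0_g1, the most abundant gene of the module, at 466 and 17.3 CPM. In 2 members a single library held most of the within-group sum of squares, and it was again DAPT 3 h replicate 2. TRINITY_DN16644_c0_g1, in module D, had 61.4% of it there, at 0.972 CPM against 44.3 to 103 CPM in the other 5 libraries. TRINITY_DN1576_c0_g2, in no module, had 57.6% there, at 0.972 CPM against 20.9 to 59.8 CPM. Without this library their pooled SDs were 0.54 and 0.54, in place of 1.03 and 0.95, and that of TRINITY_DN1195_c1_g1 was 0.70 in place of 1.06.

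**Figure D3:**
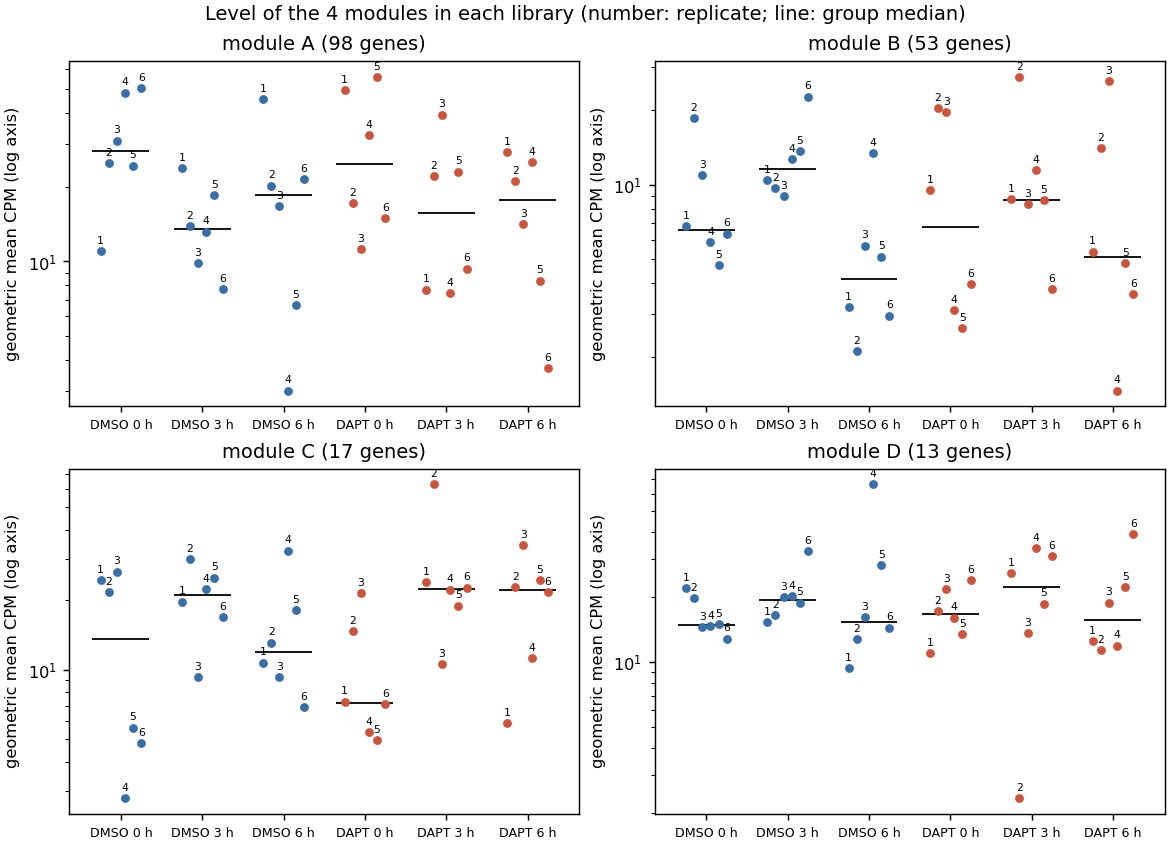
Geometric mean CPM (log axis) of the genes of each module in each library, by group, with DMSO in blue and DAPT in red; the digit beside a point is its replicate number and the line is the group median. Within groups the libraries of module A spread from 3.00 to 45.5 CPM in DMSO at 6 h, and module D shows DMSO 6 h replicate 4 at 66.4 CPM and DAPT 3 h replicate 2 at 2.35 CPM.

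Across libraries the modules were related. Over the 36 libraries, as deviations from group means, module A correlated with module D at r = -0.80 (Spearman's rho -0.88). Without the 2 libraries farthest out in module D, this correlation was -0.89. Modules B and C correlated at 0.62 (rho 0.61), and at 0.67 without the 2 libraries farthest out in module C. Module A correlated at -0.52 with C (rho -0.56) and at -0.29 with B (rho -0.27), module D at 0.04 with B (rho 0.17) and at 0.17 with C (rho 0.34). These are descriptions without tests, since both sides come from the same libraries and share their scaling.

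Measures of library composition and depth correlated with the modules to different degrees. They come from the same values as the modules, so these too are descriptions without tests. The deviation of the log2 TMM factor correlated with that of module C at -0.82 (rho -0.81), with A at 0.64 (rho 0.66), with B at -0.54 (rho -0.50) and with D at -0.26 (rho -0.42). The share of counts in the 20 most abundant genes, 23.0% to 40.9% of a library, correlated with module C at 0.69 (rho 0.66), with B at 0.34 (rho 0.38), with A at -0.08 (rho -0.13) and with D at -0.17 (rho -0.08). For log2 total counts the values were -0.41 in B, -0.32 in C, 0.12 in A and -0.09 in D. The part of library composition or depth in the spread of the members was not tested. Marker genes of cell types could not be looked up for want of gene names, so the cell type content of the libraries was not tested either.

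At 0 h the rule itself kept the members from differing between DAPT and DMSO, so that the 0 members called there, beside 7.53% of all tested genes, are no result. The rule also chose large spread, which widens the error of every comparison of the members. At 3 h after removal, edgeR's quasi-likelihood F test called 0 of the 200 members at an adjusted p under 0.05, against 6.46% of the 12253 genes tested. An unadjusted p under 0.05 was reached by 0 members and by 15.1% of all tested genes, and DESeq2, limma-voom and limma on log2 values called 0 members as well. The fitted log2 fold changes of the members at 3 h had a median of 0.09, against 0.04 for all tested genes, and lay between -0.63 and 1.37. Their standard errors (SE) had a median of 0.58, against 0.25 for all tested genes.

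At 6 h, 2 members were higher in DAPT and 0 were lower, where 1.13% of all tested genes were called higher and 5.08% were called in either direction. At an unadjusted p under 0.05 there were 4 members, against 11.8% of all tested genes. Both called genes belonged to module B. TRINITY_DN5320_c0_g1 stood at 0.929, 1.98 and 5.86 CPM as lowest, median and highest in DMSO and at 1.98, 6.88 and 111 CPM in DAPT (a log2 fold change of 3.63 with an SE of 0.84, and an adjusted p = 0.00405 in edgeR's test). The groups overlapped, with 4 of 6 DAPT libraries above all DMSO libraries, and DAPT replicates 3 and 2 stood apart at 111 and 57.8 CPM. TRINITY_DN5499_c0_g1 stood at 0.883, 1.74 and 3.66 CPM in DMSO and at 1.70, 3.01 and 51.6 CPM in DAPT (a log2 fold change of 2.83 with an SE of 0.74, and an adjusted p = 0.0145 in edgeR's test). Here only replicates 3 and 2, at 51.6 and 23.4 CPM, lay above all DMSO libraries.

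These calls rested on few libraries and on the test. Without replicate number 3 neither gene was called (edgeR adjusted p = 0.102 and 0.241), and 0 members were called in all. With limma-voom the adjusted p were 0.292 and 0.365, and with limma on log2 values 0.0724 and 0.156. An exact permutation test, two-sided, of the mean log2(CPM + 0.5) in 6 against 6 libraries gave p = 0.0303 for TRINITY_DN5320_c0_g1, with a difference of 2.15, and p = 0.0519 for TRINITY_DN5499_c0_g1, with a difference of 1.56, neither adjusted for the choice of these genes among all tested. DAPT replicates 3 and 2 were also the high libraries of the whole of module B at 6 h, in which 50 of 53 genes had a higher fitted level in DAPT, with a median log2 fold change of 0.87, against 47.7% and -0.02 for all tested genes. Of the other modules, A, with 67 of 98 genes, and D, with 11 of 13, were mostly on the lower side, with medians of -0.17 and -0.35, where 52.3% of all tested genes were. In module C 12 of 17 genes were on the higher side, with a median of 0.45. Of the genes of these 3 modules, 0 were called.

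**Figure D4:**
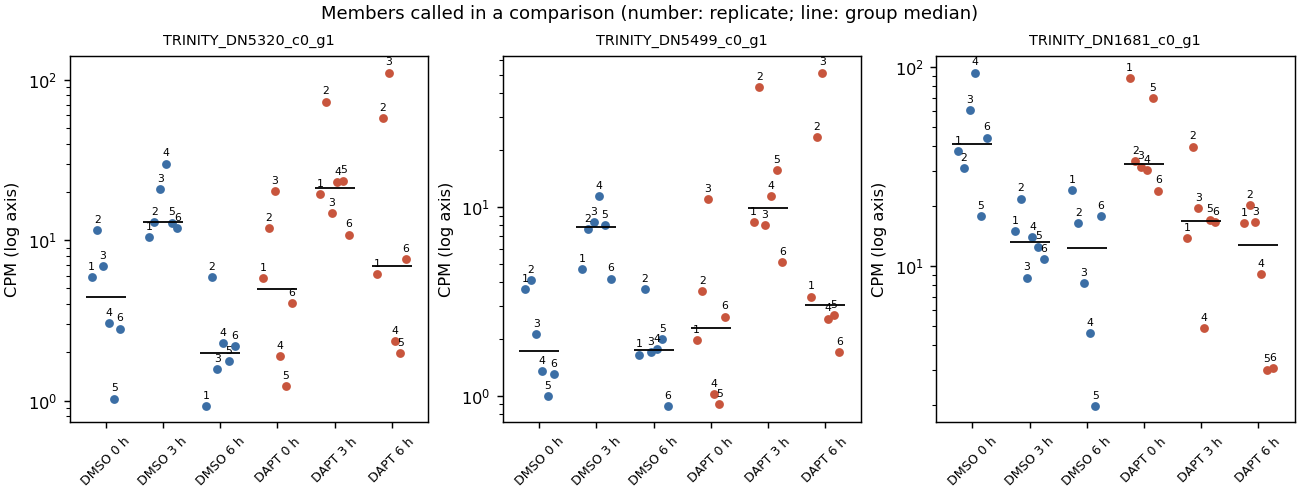
CPM (log axis) of the 3 members called in a comparison, in each library by group, with DMSO in blue and DAPT in red, the replicate number beside each point and the group median as a line. In TRINITY_DN5320_c0_g1 and TRINITY_DN5499_c0_g1 replicates 3 and 2 stand apart in DAPT at 6 h, while all 6 DAPT 6 h libraries of TRINITY_DN1681_c0_g1 lie below all 6 of DAPT at 0 h.

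The change of the difference between DAPT and DMSO from 0 h to 6 h, tested directly, was called in 0 members by edgeR's test, against 0.00816% of all tested genes. Unadjusted p under 0.05 were found for 2 members and for 3.89% of all tested genes. This contrast contains the 0 h difference that the rule kept small and the spread that it chose to be large, with a median SE of 0.82 in members and 0.34 in all tested genes, so the low counts were in part set by the choice of members. DESeq2, limma-voom and limma on log2 values called 0 members.

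Within the control animals, the members were mostly lower at 6 h than at 0 h, without passing the test, while the modules differed in direction. Between 0 h and 6 h in DMSO, 0 members were called by edgeR's test, as were 0.0% of all tested genes, and 17 members had an unadjusted p under 0.05, against 11.2% of all tested genes. DESeq2 called 1 member and 11 of all tested genes, and limma-voom and limma on log2 values 0 of either. The fitted level was lower at 6 h in 172 of the 200 members, with a median log2 change of -0.67, against 52.1% and -0.02 for all tested genes. Among them were 98 of 98 genes of module A, with a median of -0.73, and 52 of 53 of module B, with a median of -0.75. Modules C and D went the other way, with 6 of 17 and 2 of 13 genes lower and medians of 0.21 and 0.59. Genes of a module share their libraries, so these are not numbers of replicates. Between 0 h and 3 h in DMSO, a comparison added after the group levels had been seen, 0 members and 0.0% of all tested genes were called, while 54 members had an unadjusted p under 0.05 against 9.25% of all tested genes. All 98 genes of module A again had a lower fitted level at 3 h, with a median of -1.07, where 50.8% of all tested genes had one, and 43 of the 54 were theirs. In module B, by contrast, 47 of 53 genes had a higher fitted level at 3 h, with a median of 0.66, against 49.2% of all tested genes. So did 9 of 17 genes of module C and 12 of 13 of module D, with medians of 0.19 and 0.34. In all, 122 of the 200 members were lower at 3 h. DESeq2, limma-voom and limma on log2 values called 0 members between 0 h and 3 h.

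Within the DAPT animals, 1 member was lower at 6 h than at 0 h by edgeR's test, where 0.212% of all tested genes were called lower and 0.539% in either direction. TRINITY_DN1681_c0_g1, in module A, stood at 23.9, 32.7 and 87.8 CPM at 0 h and at 3.02, 12.8 and 20.2 CPM at 6 h (a log2 fold change of -2.02 with an SE of 0.50, and an adjusted p = 0.0491 in edgeR's test). All 6 libraries at 6 h lay below all 6 at 0 h (p = 0.00216 in a two-sided exact permutation test, the smallest that 6 against 6 libraries can give, not adjusted for the choice of this gene). Its edgeR call was lost on leaving out any 1 of the 6 replicate numbers (adjusted p from 0.0552 to 0.348) and without DAPT 6 h replicate 6 (0.125), while its log2 fold change lay between -1.65 and -2.30 in these fits. Without DAPT 3 h replicate 2, 2 members and 160 of all tested genes were called. DESeq2 called 5 members and 275 of all tested genes, limma-voom 3 and 129, and limma on log2 values 3 and 148, where edgeR called 1 and 66. In DMSO animals the same gene stood at 17.9, 41.1 and 93.7 CPM at 0 h, at 8.73, 13.2 and 21.8 after 3 h and at 1.99, 12.3 and 24.1 after 6 h, with overlap between 0 h and 6 h.

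In DAPT animals modules A and C lay on opposite sides. Their medians in DMSO animals also had opposite signs, at -0.73 and 0.21 at 6 h and at -1.07 and 0.19 at 3 h. At 6 h in DAPT, 91 of 98 genes of module A had a lower fitted level than at 0 h, against 53.3% of all tested genes. The median log2 change of the module was -0.81, and 23 of its genes had an unadjusted p under 0.05. In module C 16 of 17 genes had a higher fitted level, with a median of 1.14, against 46.7% of all tested genes, and 8 had an unadjusted p under 0.05. Over all members 34 had an unadjusted p under 0.05, against 14.2% of all tested genes. At 3 h, in a comparison likewise added after the levels had been seen, 95 of 98 genes of module A were on the lower side with a median of -0.69, and 17 of 17 of module C on the higher side with a median of 1.03, against 51.0% lower and 49.0% higher among all tested genes. By edgeR's test 0 members and 0.0% of all tested genes were called between 0 h and 3 h in DAPT, with 19 members at an unadjusted p under 0.05 against 8.66% of all tested genes. DESeq2 called 6 members and 45 of all tested genes, limma-voom and limma on log2 values 0 of either, and edgeR without replicate number 3 called 7 members and 52 of all tested genes. Genes of a module share their libraries, so their number is not a number of replicates. Whether the course over time differed between modules was not tested.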

How the data were processed

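RNA of whole Hydra was sequenced from strand-specific mRNA libraries. Per the labels, adapters, polyA and splice leader sequences were trimmed and short or low-quality reads removed. Tools listed in the submitters' processing notes, without their roles, are Bowtie2, RSEM and DESeq2 1.18.1. The authors deposited 1 table of 12410 genes by 36 libraries, entered here as estimated counts (expected counts), with a lowest value of 0.09 and 98.95% of values not whole. Values below 200 were whole multiples (within 0.0051, 100.0% in every library, 6.6% to 17.8% by chance) of 1 step per library of 0.0574 to 0.155, and in units of 0.01 a library summed to 908331 to 993046. TPM, or CPM of fractional reads, rounded at 0.01 and multiplied by a library total would have this form, and no label records such a step.

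The values were rounded and filtered with filterByExpr of edgeR 4.0.16 (R 4.3.3), which left 12253 genes, all 200 members among them, and scaled by TMM. The main test was edgeR's quasi-likelihood F test over all 36 libraries with 6 group means and Benjamini-Hochberg adjustment over all tested genes. Because the values may not be counts, limma 3.58.1 with a trend on log2(CPM + 0.5) less the library median was added, beside limma-voom and DESeq2 1.42.0. Depth behind single values is unknown, and the spread between libraries gives the precision. CPM in the text are TMM-scaled, and mean levels and pooled SDs follow the rule for the members, which uses column totals and medians.

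Modules came from average linkage on 1 minus Pearson's r of deviations from group means, cut at 0.4, with at least 8 genes. Named genes were the 8 with the largest SD, the 2 closest to each module mean and its most abundant gene, called members, the 3 with the smallest p for the replicate number, those ranked 200 and 201, the 2 most abundant, and the 2 with the largest share in 1 library. TRINITY_DN2809_c0_g2 and the TRINITY_DN182 cluster were named for shared clusters after their values were seen. The members, rules and tests were chosen with earlier results of these data known. Whether replicate numbers pair the libraries was not tested beyond the F test and its alternatives. Over 90 pairs of libraries with the same number in different groups, deviations over all tested genes correlated at -0.59 to 0.63. Their median was -0.04, with 39 pairs over 0.1. Pairs with different numbers in different groups correlated at -0.76 to 0.77, with a median of -0.006. Lane effects could not be examined because no label assigns libraries to lanes. No sequence is shown because those of the assembly were not used here.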

Additional observations from a re-analysis of the deposited data

Results flagged for a closer look

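In 9 of 198 checks of a module's or a named gene's level within a group, 1 library lay far from the other 5; chance alone gives about 1 in 20, and the checks overlap because genes of a module share their libraries. The genes were chosen for their spread, and TRINITY_DN16644_c0_g1 and TRINITY_DN1576_c0_g2 for the share of it in DAPT 3 h replicate 2, so their checks were set by that choice and the chance rate is no reference for them. DAPT 3 h replicate 2 was such a library in 5 of them: module D stood at 2.35 CPM (geometric mean) against 13.58 to 33.83 CPM, TRINITY_DN12740_c0_g1 at 2.655 against 19.11 to 50.86 CPM, TRINITY_DN1195_c1_g1 at 0.4176 against 18.81 to 42.96 CPM, TRINITY_DN16644_c0_g1 at 0.9725 against 44.31 to 103.3 CPM, and TRINITY_DN1576_c0_g2 at 0.9725 against 20.89 to 59.82 CPM. All of these were low in that library, whose TMM factor was 0.728. Module D was high in DMSO 3 h replicate 6, at 32.75 against 15.36 to 20.28 CPM. TRINITY_DN5549_c0_g1 was low in DAPT 3 h replicate 1, at 2.998 against 23.24 to 72.68 CPM. TRINITY_DN16644_c0_g1 was low in DAPT 6 h replicate 1, at 45.86 against 79.06 to 107.4 CPM. TRINITY_DN92_c1_g1, the first gene outside the set, was high in DMSO 3 h replicate 1, at 36.19 against 9.464 to 13.05 CPM.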

How the results depend on the processing

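Of 140 alternative values for the counts of called members, the membership and the modules, 122 stayed within 1.5 times the reported value. The alternatives reversed 0 results. Many of the 122 were counts of 0 beside a reported 0, where a ratio is undefined. The rule chose large spread and, between treatments, a small difference at 0 h, which make such counts likely, so they say little about stability. The exceptions were these. At 6 h, limma-voom and limma on log2 values called 0 members, and leaving out each replicate number, or 1 of 3 libraries that stood apart, gave 0 (without replicate 3) to 3. For DMSO at 6 h against 0 h, DESeq2 called 1. For DAPT at 6 h against 0 h, DESeq2 called 5, limma-voom 3 and limma on log2 values 3, and leave-outs gave 0 to 2. For DAPT at 3 h against 0 h, DESeq2 called 6 and leave-outs gave 0 to 7. For the replicate number, DESeq2 called 7. The cause was not tested. With the replicate number as a block, 0 members were called at 3 h, 2 at 6 h and 0 in the change. In this fit 0 were called in DMSO and 1 in DAPT over 6 h, and 0 in DMSO and 0 in DAPT over 3 h. The rule with this block chose 185 of the 200 genes again.

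Over all tested genes, the count for DAPT at 6 h against 0 h was 66, and 275 by DESeq2, 129 by limma-voom, 148 by limma on log2 values, and 0 to 265 on leaving out replicate numbers or libraries. DESeq2 also called 280 genes for the replicate number and 45 for DAPT at 3 h against 0 h, where edgeR called 0 (52 in the latter without replicate 3), and 11 in DMSO over 6 h. The membership kept 193 of 200 genes with TMM scaling, 172 with 2 CPM added in place of 0.5, and 153 to 189 on leaving out replicate numbers or single libraries. Other cuts of the tree, or Spearman's correlation, gave 4 or 5 modules with 167 to 200 members, the largest with 92 to 105. The limma fit on log2 values, the leave-outs of DAPT 6 h replicate 6 and DAPT 3 h replicate 2, and the comparisons of 3 h with 0 h were chosen after seeing the data.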
